A study of Homo sapiens with 136 samples.

Results

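PANC-1 cells, an established line from a human pancreatic ductal adenocarcinoma, were treated with an inhibitor of MEK or ERK together with 1 of 2 autophagy inhibitors, and the results below describe how the autophagy inhibitors differed from each other under that block. The members are 36 of the 136 libraries of the series. They were chosen by label: 18 libraries received an inhibitor of the lipid kinase Vps34 (VSP34I in the treatment labels, taken here as the Compound 19 that the protocol gives as the Vps34 inhibitor) and 18 received Hydroxychloroquine, each with 1 of 9 kinase inhibitors. MEK was inhibited with Refametinib, Selumetinib, Binimetinib, Cobimetinib or Trametinib, and ERK with Ravoxertinib, AZD0364, Ulixertinib or SCH772984. Every combination was present in 2 libraries, on plate A and on plate B, so the libraries form 18 pairs that share the kinase inhibitor and the plate. Cells were treated for 24 h. Per the labels, doses were set so that 80% of the cells were viable after 48 h with the single compound, which makes the compounds matched by viability and not by concentration. RNA was measured by PLATE-Seq, in which pooled, barcoded libraries are prepared from lysed wells. All 36 wells received an autophagy inhibitor and a kinase inhibitor and untreated wells were not analysed here, so a difference below does not show which of the 2 autophagy inhibitors moved a gene. Whether libraries of a combination came from separate cultures is not stated, and p-values then measure only the spread between these libraries.

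Vps34, encoded by PIK3C3, makes the phosphatidylinositol 3-phosphate that marks early endosomes and the membranes from which autophagosomes form, so its inhibition acts early in autophagy. Hydroxychloroquine is a weak base that accumulates in lysosomes, raises their pH and acts late, on the breakdown of what autophagosomes and endosomes deliver. Lysosomes also release amino acids, cholesterol and iron. Transcription factors that respond to shortage or stress include ATF4 (shortage of amino acids and other stresses), SREBF1 and SREBF2 (shortage of sterols) and NRF2 (oxidative stress, and the autophagy receptor p62). Growth signals of pancreatic ductal adenocarcinoma run through MEK and ERK, and blocking that pathway is known to raise autophagy in such cells.

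The libraries held 1668710 to 5620760 counts each. Those with the Vps34 inhibitor were the shallower of the pair in 15 of 18 pairs, with means of 3295720 counts with the Vps34 inhibitor and 4141110 with hydroxychloroquine (permutation test within pairs, two-sided, p = 0.0181, adjusted p = 0.0544 over 6 library measures). With libraries thinned to equal totals, 1346 of 1522 genes called below and tested again kept their call and direction. Counts from mitochondrial messenger RNA made up 19.6% with the Vps34 inhibitor and 19.3% with hydroxychloroquine, and neither this nor the other shares tested passed. Of 10 markers of pancreatic ductal epithelium, 7 were abundant enough to be tested, and 1, KRT18, was lower with the Vps34 inhibitor (−0.17 ± 0.05). Their summed level was 462 to 680 CPM (counts scaled by the effective total of the library; median 563) with the Vps34 inhibitor and 554 to 792 CPM (median 629) with hydroxychloroquine. Summed immune markers stayed at or below 7.90 CPM, and PTPRC and NKG7 among them had no counts in either group. The summed endothelial markers stayed at or below 3.02 CPM, and acinar and endocrine markers at or below 0.801 CPM. Of 6 fibroblast markers 2 were tested and 0 called. The 6 summed to 55.6 to 107 CPM with the Vps34 inhibitor and 59.96 to 122 CPM with hydroxychloroquine. COL1A1 alone had medians of 74.5 and 76.3 CPM in the same order.

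Among 10694 genes tested, the Vps34 inhibitor gave higher levels than hydroxychloroquine for 746 and lower levels for 799 (edgeR quasi-likelihood test on 18 pairs, Benjamini-Hochberg adjusted p under 0.05). That is 14.4% of the genes tested, 6.98% called higher and 7.47% called lower, and the member counts below are read against these shares. All differences are log2 values of the Vps34 inhibitor over hydroxychloroquine with their standard error, and the median over all genes was 0.00. No gene separated all 18 libraries of a group from all 18 of the other, while 118 genes (1.1%) had the same sign in all 18 pairs. The test treats the 18 pairs as independent, although every kinase inhibitor gave a pair on plate A and a pair on plate B. Neither its p-values nor the counts of pairs allow for likeness between pairs that share a drug. On plate A alone 219 genes were called and on plate B alone 652, against 1545 over both.

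**Figure D1:**
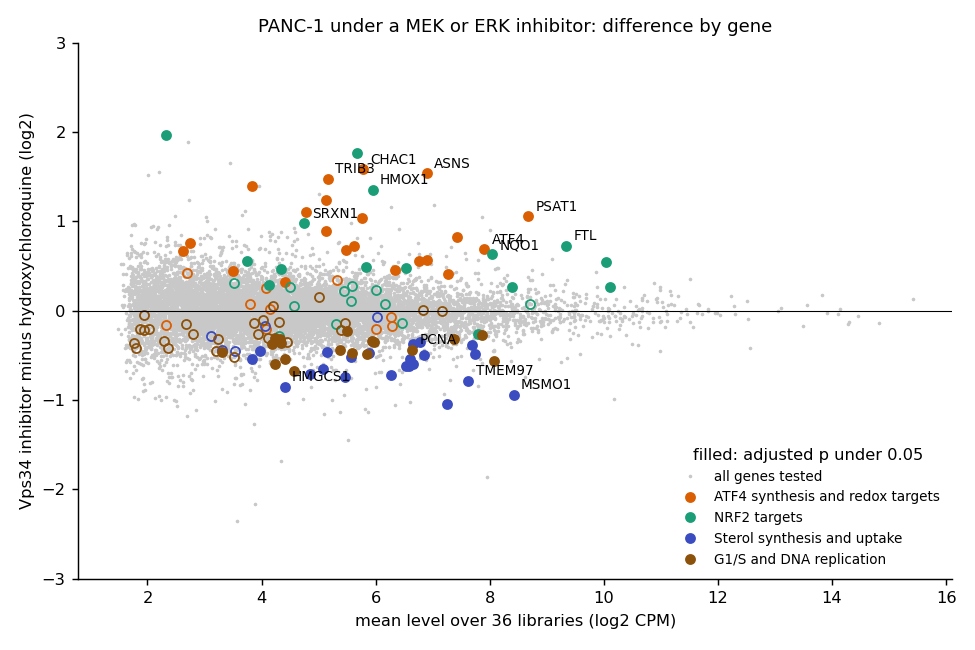
Log2 difference between the Vps34 inhibitor and hydroxychloroquine (y axis) against mean level in log2 CPM (x axis) for the 10694 genes tested in PANC-1 under a MEK or ERK inhibitor; 4 gene lists are coloured, with filled points for adjusted p under 0.05. ATF4 and NRF2 targets lie mostly above 0, and genes of sterol synthesis and of DNA replication mostly below.

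Targets of ATF4 made up the clearest group on the higher side. ATF4 is translated when cells face stress such as a lack of amino acids, and its targets build serine, asparagine and other amino acids and defend the redox state. Of 36 listed synthesis and redox targets 31 were tested, of which 21 rose with the Vps34 inhibitor and none passed in the other direction, with a median of 0.57 over the 31. The 10 that did not pass lay between −0.20 and 0.43, ATF3 at −0.15 and PPP1R15A at −0.20 among them. ATF4 itself had 152 to 422 CPM (median 277) with the Vps34 inhibitor and 111 to 373 CPM (median 150) with hydroxychloroquine. It was higher in 18 of 18 pairs, by 0.69 ± 0.08 (adjusted p = 4.59e-07).

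ASNS, asparagine synthetase, is a textbook ATF4 target (chr7:97852118-97872542 on GRCh38, minus strand). It had 105 to 296 CPM (median 161) with the Vps34 inhibitor and 27.4 to 184 CPM (median 46.6) with hydroxychloroquine. The groups overlapped, yet it was higher in all 18 pairs, by 1.54 ± 0.12 (adjusted p = 7.49e-09). CHAC1, an enzyme that degrades glutathione and is induced by ATF4, had 40.04 to 148 CPM (median 60.2) with the Vps34 inhibitor and 6.90 to 96.9 CPM (median 17.1) with hydroxychloroquine, a difference of 1.58 ± 0.17 (adjusted p = 2.11e-06). Promoters of both genes are shown because they hold letters of the combined C/EBP and ATF4 element, searched as TGATGNAA on both strands. Each is the 250 bases before the RefSeq start (GRCh38.p14), printed along the strand of its gene, with the match in capitals.
ASNS (chr7:97872409-97872658, minus strand, match 68 bases before the start): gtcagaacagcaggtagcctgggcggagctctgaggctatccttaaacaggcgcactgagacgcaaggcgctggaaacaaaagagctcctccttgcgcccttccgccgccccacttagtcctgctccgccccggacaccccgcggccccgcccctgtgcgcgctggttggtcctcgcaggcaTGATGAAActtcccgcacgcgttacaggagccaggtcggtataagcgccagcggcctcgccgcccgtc
CHAC1 (chr15:40953221-40953470, plus strand, match on the other strand 209 bases before the start): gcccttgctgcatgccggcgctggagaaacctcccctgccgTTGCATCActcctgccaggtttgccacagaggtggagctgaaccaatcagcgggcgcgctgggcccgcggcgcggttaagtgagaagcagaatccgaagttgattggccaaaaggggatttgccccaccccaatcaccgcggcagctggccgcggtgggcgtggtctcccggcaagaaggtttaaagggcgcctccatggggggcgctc
The letters occurred in 870 of 27305 RefSeq promoters of this length (3.19%) and in 6 of 48 promoters (12.5%) matched to the 60 tested genes of the ATF4 target, amino acid transporter and tRNA synthetase lists. Besides these they were found at ATF3, IARS1, HERPUD1 and AARS1. A match is a description of the sequence and not a binding site.

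TRIB3, a pseudokinase that restrains ATF4 (chr20:362835-397559, plus strand), had 25.9 to 130 CPM (median 37.6) with the Vps34 inhibitor and 7.48 to 55.6 CPM (median 12.4) with hydroxychloroquine. The difference was 1.48 ± 0.11 (adjusted p = 1.68e-10), again in all 18 pairs. The serine synthesis enzymes rose together: PSAT1 was higher in 18 pairs by 1.05 ± 0.11 (adjusted p = 8.35e-07) and PHGDH in 17 pairs by 0.82 ± 0.10 (adjusted p = 3.5e-06). PSAT1 had a median of 486 CPM with the Vps34 inhibitor and 214 CPM with hydroxychloroquine, and PHGDH 201 and 104 CPM in the same order. The other rises of the list included PCK2, a mitochondrial enzyme of gluconeogenesis (medians of 16.9 CPM with the Vps34 inhibitor and 5.05 CPM with hydroxychloroquine), NUPR1, a stress-induced chromatin protein (1.03 ± 0.10), SESN2, an inhibitor of mTORC1 (1.10 ± 0.16), and GDF15, a secreted stress hormone (0.89 ± 0.10). DDIT3, the transcription factor CHOP, rose less, by 0.57 ± 0.07 (adjusted p = 6.2e-07).

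Of 20 cytosolic aminoacyl-tRNA synthetases tested, which join amino acids to their transfer RNAs, 9 were higher, 1 was lower and 10 did not pass, with a median of 0.22. The glycine enzyme GARS1 had 205 to 500 CPM (median 313) with the Vps34 inhibitor and 101 to 374 CPM (median 142) with hydroxychloroquine, and rose by 0.90 ± 0.09 (adjusted p = 1.22e-07). CARS1, SARS1 and WARS1, for cysteine, serine and tryptophan, rose by 0.71 ± 0.07, 0.65 ± 0.06 and 0.64 ± 0.05, each in 18 of 18 pairs. Of 9 amino acid transporters tested, 6 were higher, none was lower at the threshold and 3 did not pass, with a median of 0.36. SLC1A4 (neutral amino acids) was higher by 0.84 ± 0.12, SLC7A1 (cationic amino acids) by 0.64 ± 0.08 and SLC1A5 (glutamine) by 0.36 ± 0.07. SLC7A11, the cystine carrier that ATF4 and NRF2 share, had 14.1 to 1065 CPM (median 29.1) with the Vps34 inhibitor and 3.66 to 55.3 CPM (median 7.32) with hydroxychloroquine. Its highest value came from the plate B library with Selumetinib. The difference was 1.76 ± 0.42 (adjusted p = 0.00968) over all pairs, and 1.60 (adjusted p = 0.00182) without both Selumetinib pairs. It was not called on plate B alone (adjusted p = 0.140) or on plate A alone (adjusted p = 0.135).

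**Figure D2:**
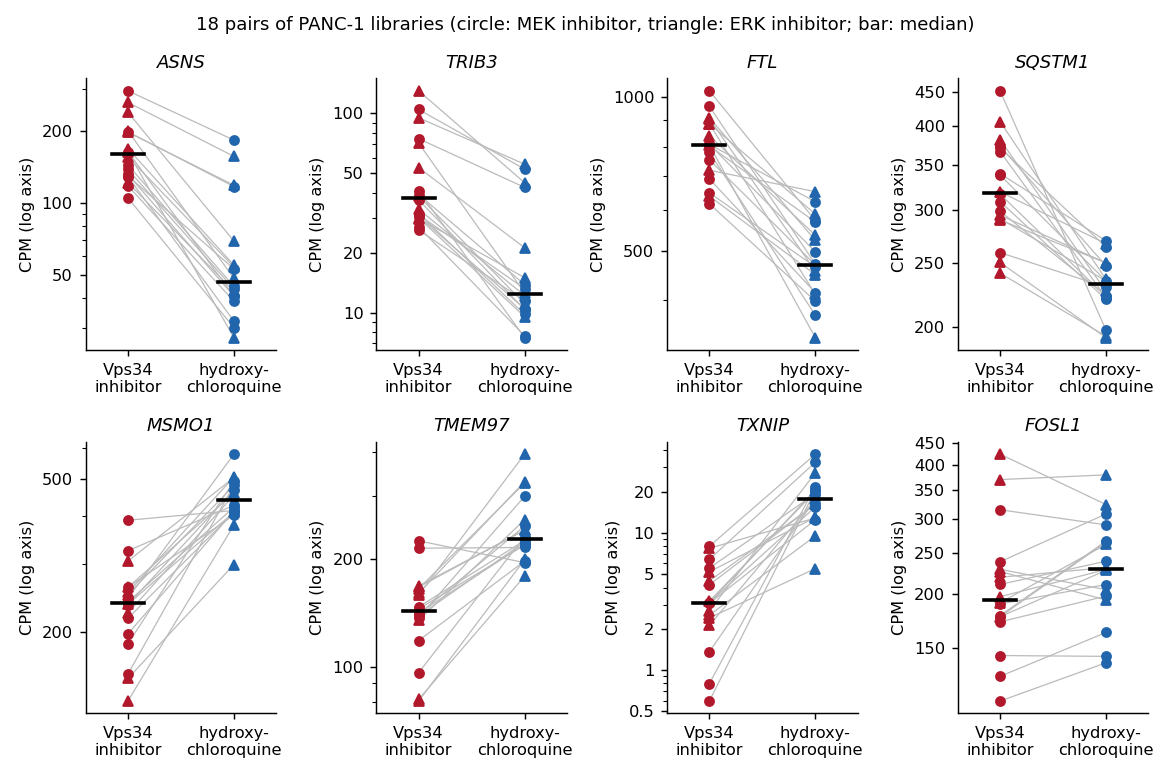
CPM on a log axis for 8 genes in each of 36 PANC-1 libraries, the Vps34 inhibitor on the left and hydroxychloroquine on the right, with a line joining the 2 libraries of a pair, circles for MEK inhibitors, triangles for ERK inhibitors and a bar for the median. ASNS, TRIB3, FTL and SQSTM1 were higher with the Vps34 inhibitor in all 18 pairs, MSMO1 and TXNIP lower in all 18, while FOSL1 was higher in 5 of 18 and overlapped widely.

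Antioxidant genes formed a second group on the higher side. Of 27 NRF2 targets tested 14 were higher and 1, PGD, was lower (−0.26), with a median of 0.28. FTL, the ferritin light chain that stores iron (chr19:48965301-48966878, plus strand), had 618 to 1029 CPM (median 806) with the Vps34 inhibitor and 338 to 653 CPM (median 470) with hydroxychloroquine. It rose in all 18 pairs by 0.73 ± 0.06 (adjusted p = 1.05e-08), and the heavy chain FTH1 by 0.54 ± 0.05. HMOX1, the heme oxygenase that frees iron from heme, had 48.9 to 206 CPM (median 72.2) with the Vps34 inhibitor and 14.96 to 71.6 CPM (median 28.3) with hydroxychloroquine, a difference of 1.36 ± 0.14 (adjusted p = 1.54e-06). The redox enzymes SRXN1 and NQO1 rose by 0.98 ± 0.09 and 0.63 ± 0.06. The enzymes of glutathione synthesis GCLC and GCLM rose by 0.47 ± 0.08 and 0.49 ± 0.09. Iron genes were split. Of 11 tested 3 were higher, FTL, FTH1 and HMOX1, which are all also on the NRF2 list, and 3 were lower, with a median of −0.12. The lower ones were the ferrireductase STEAP3 (−0.49 ± 0.12), the transferrin receptor TFRC (−0.29) and the iron-sensing aconitase ACO1 (−0.25). Metallothioneins were split, MT1X higher (0.46 ± 0.12) and MT1E lower (−0.56 ± 0.10) among 6 genes tested.

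Of 33 core autophagy genes tested 5 were higher (15.2%, against 6.98% of all genes), 1 was lower (3.03%, against 7.47%) and 27 did not pass. The median was 0.03, close to that of all genes. PIK3C3, the gene of the Vps34 kinase, had 7.90 to 17.3 CPM (median 12.5) with the Vps34 inhibitor and 11.5 to 19.6 CPM (median 14.4) with hydroxychloroquine, a difference of −0.20 ± 0.09 that did not pass (adjusted p = 0.146). Among the genes that passed were the initiating kinase ULK1 (0.44 ± 0.09), WDR45, which binds phosphatidylinositol 3-phosphate (0.62 ± 0.12), TFE3, a transcription factor of lysosomal genes (0.37 ± 0.08), and ATG16L1, part of the complex that lipidates LC3 (−0.49 ± 0.10). Of 18 LC3 proteins and receptors tested 5 were higher (27.8%, against 6.98% of all genes) and none lower at the threshold. The receptor SQSTM1 (p62; chr5:179806398-179838078, plus strand) had 241 to 452 CPM (median 318) with the Vps34 inhibitor and 193 to 269 CPM (median 232) with hydroxychloroquine. It was higher in 18 of 18 pairs, by 0.48 ± 0.06 (adjusted p = 3.77e-06). TAX1BP1 and OPTN, also receptors, rose by 0.34 ± 0.06 and 0.32 ± 0.07. MAP1LC3A rose by 0.47 ± 0.08 and MAP1LC3B by 0.20 ± 0.06 (adjusted p = 0.034). GABARAPL1, with medians of 2.19 CPM with the Vps34 inhibitor and 1.89 CPM with hydroxychloroquine, and TFEB, with 0.749 and 1.33 CPM in the same order, were too low to be tested.

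MRNIP, a DNA repair factor, lies next to SQSTM1 on the opposite strand, and their gene spans overlap by 2946 bases. Reads of transcribed parts shared by both cannot be assigned without strand, whose use in counting is not given in the sources used here. MRNIP had 96.5 to 259 CPM (median 177) with the Vps34 inhibitor and 50.8 to 115 CPM (median 75.9) with hydroxychloroquine. It lay above every hydroxychloroquine library in 17 of 18 libraries with the Vps34 inhibitor. Its difference of 1.18 ± 0.07 (adjusted p = 6.16e-12) is larger than that of SQSTM1. Spans of DDIT3, PCK2, WARS1, SLC1A5, FTH1, MAP1LC3B, TAX1BP1, OPTN, GM2A, PLTP, TMEM97, ACAT2, FADS1, FADS2 and SREBF1 also overlap a coding gene on the opposite strand. So do those of MVK, ACSS2, ATP6V1F, ZFYVE9, JUNB, MAP2K1, DNAJB11, PSMA2, KRT18, TYMS, SPC25, ZNFX1, ZNHIT1, LXN and SOD2. On the same strand, where strand cannot help, SRXN1, WDR45, ETV5, AARSD1, MRNIP, DDIT3, FADS2, DNAJB11, PSMA2, TM7SF2 and ND4 overlap a coding gene. Spans include introns, and whether counted reads were affected was not tested.

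The lysosomal lists had small median differences, with genes called in both directions. A single gene could differ more: LAMP3, a lysosome-associated membrane protein, was higher by 1.88. It was called in 5 of the single-drug contrasts described below. Among 40 hydrolases and activators tested 8 were higher (20%, against 6.98% of all genes) and 1 lower, with 28 above 0 and a median of 0.12. NAGLU, which degrades heparan sulfate, rose by 0.46 ± 0.08, GM2A, the activator of ganglioside breakdown, by 0.44 ± 0.08, and GALC, a galactolipid hydrolase, by 0.39 ± 0.10. Of 32 membrane and proton pump genes 3 were higher and 2 lower, with a median of 0.04. The pump subunit ATP6V0D1 fell by 0.36 ± 0.07, whereas another, ATP6V1F, rose by 0.21 ± 0.06. Of 32 endosomal effectors of phosphatidylinositol 3-phosphate and retromer genes, 1 passed: ZFYVE9, an endosomal adaptor of TGF-beta receptors (0.55 ± 0.14). For the membrane and endosomal lists these counts lie near or below the background of 14.4%.

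The sterol pathway was the clearest group on the lower side. SREBF2 drives the enzymes that make cholesterol. Of 27 genes tested 22 were lower with the Vps34 inhibitor and none higher at the threshold, with a median of −0.52. MSMO1, a demethylase of late cholesterol synthesis (chr4:165327623-165343160, plus strand), had 133 to 390 CPM (median 238) with the Vps34 inhibitor and 300 to 579 CPM (median 440) with hydroxychloroquine. It was lower in all 18 pairs, by −0.94 ± 0.08 (adjusted p = 7.49e-09), and 15 of 18 libraries with the Vps34 inhibitor lay below every hydroxychloroquine library. Its promoter, the 250 bases before the RefSeq start, is shown because it holds letters of the sterol regulatory element, searched as TCACNCCA on both strands and given in capitals.
MSMO1 (chr4:165327419-165327668, GRCh38.p14, plus strand, match 156 bases before the start): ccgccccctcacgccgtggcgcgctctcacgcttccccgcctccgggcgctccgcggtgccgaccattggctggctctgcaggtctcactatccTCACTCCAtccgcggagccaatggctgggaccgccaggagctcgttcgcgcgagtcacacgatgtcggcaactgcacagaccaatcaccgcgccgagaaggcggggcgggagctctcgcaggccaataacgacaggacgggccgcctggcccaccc
The letters were in 869 promoters (3.18%) of all 27305, and in 3 of 21 (14.3%) matched to the sterol list, at MSMO1, MVK and SREBF2.

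Enzymes along the whole sterol route were lower. HMGCS1, at the entry of the mevalonate pathway, had 7.96 to 22.6 CPM (median 14.7) with the Vps34 inhibitor and 16.7 to 36.4 CPM (median 25.6) with hydroxychloroquine, a difference of −0.85 ± 0.09. IDI1, which isomerises the isoprene unit, fell by 0.74 ± 0.09, and FDFT1, which makes squalene, by 0.54 ± 0.08. ACAT2, which condenses acetyl-CoA, had 35.3 to 167 CPM (median 92.7) with the Vps34 inhibitor and 124 to 353 CPM (median 186) with hydroxychloroquine, a difference of −1.05 ± 0.14. The sterol-regulated membrane protein TMEM97 fell by 0.78 ± 0.09, and INSIG1, which retains the SREBF proteins when sterols are plentiful, by 0.49 ± 0.07. SREBF2 itself was at a median of 12.7 CPM with the Vps34 inhibitor and 17.0 CPM with hydroxychloroquine, a difference of −0.45 ± 0.14 (adjusted p = 0.0323). The 5 genes that did not pass were TM7SF2, PMVK, ACSS2, MVK and STARD4.

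Fatty acid genes followed, with 11 of 16 lower and 1 higher and a median of −0.31. FASN, fatty acid synthase, had 106 to 243 CPM (median 163) with the Vps34 inhibitor and 179 to 318 CPM (median 258) with hydroxychloroquine, a difference of −0.66 ± 0.09. The desaturases FADS2, FADS1 and SCD fell by 0.88 ± 0.12, 0.49 ± 0.08 and 0.57 ± 0.09. SREBF1, the regulator of this branch, fell by 0.29 ± 0.10 (adjusted p = 0.0434). Of 6 genes of sterol efflux under LXR that could be tested, 1 passed, the lipid transfer protein PLTP (0.22 ± 0.07).

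Of 4 genes of glucose sensing tested 2 were lower, and the largest difference of all called genes was among them. TXNIP, an arrestin that limits glucose uptake and follows the glucose-sensing factor MondoA (chr1:145992435-145996600, minus strand), had 0.595 to 7.99 CPM (median 3.10) with the Vps34 inhibitor and 5.49 to 37.5 CPM (median 17.6) with hydroxychloroquine. It was lower in 18 of 18 pairs, by −2.35 ± 0.21 (adjusted p = 8.1e-08). MLXIP, the gene of MondoA, fell by 0.41 ± 0.10. The keratin KRT80 was at a median of 8.19 CPM with the Vps34 inhibitor and 21.3 CPM with hydroxychloroquine, a difference of −1.27 ± 0.11 in 18 of 18 pairs. Of 27 genes of glycolysis and hypoxia 2 were higher and 4 lower, the glucose carrier SLC2A1 by 0.47 ± 0.08 and lactate dehydrogenase LDHA by −0.28 ± 0.05.

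Of 43 genes of G1/S and DNA replication tested 18 were lower, none was higher at the threshold and 25 did not pass, with a median of −0.31. PCNA, the sliding clamp of the replication fork (chr20:5114953-5126626, minus strand), had 40.4 to 154 CPM (median 82.9) with the Vps34 inhibitor and 61.3 to 220 CPM (median 115) with hydroxychloroquine. It was lower in 17 of 18 pairs, by −0.44 ± 0.07 (adjusted p = 9.16e-05). The replicative helicase subunit MCM3 fell by 0.35 ± 0.06 and thymidine kinase TK1 by 0.43 ± 0.07, each in 18 of 18 pairs. Of 50 genes of G2/M and mitosis 17 were lower, none was higher at the threshold and 33 did not pass, with a median of −0.22. Without the Ulixertinib pairs the median was −0.13 and 13 were lower, and for the G1/S list −0.27 and 13. Genes of mitosis that passed included UBE2C, which serves the anaphase-promoting complex (−0.52 ± 0.09), and the mitotic kinase AURKA (−0.43 ± 0.09). In bulk libraries, fewer cells in a phase and less RNA per cell cannot be told apart. Of 50 ribosome biogenesis genes 3 were lower, including WDR43 (−0.56 ± 0.13), and the median was −0.10.

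Of 11 ERK output genes tested, which report on the blocked pathway, 5 had an unadjusted p under 0.05 and 2 were higher (18.2%, against 6.98% of all genes), the transcription factor ETV5 (0.68 ± 0.16, adjusted p = 0.00491) and the feedback inhibitor SPRED1 (0.34 ± 0.11, adjusted p = 0.0284), and the median was 0.11. DUSP6, the ERK phosphatase, had 0 to 4.52 CPM with the Vps34 inhibitor and 0 to 4.40 CPM with hydroxychloroquine and was too low to be tested. FOSL1, a transcription factor induced through ERK, had 113 to 424 CPM (median 194) with the Vps34 inhibitor and 139 to 379 CPM (median 230) with hydroxychloroquine, a difference of −0.16 ± 0.06 (adjusted p = 0.0951). PHLDA1 was at a median of 66.4 CPM with the Vps34 inhibitor and 64.4 CPM with hydroxychloroquine (0.04 ± 0.08, adjusted p = 0.801), and the feedback inhibitor SPRY4 differed by 0.16 ± 0.20 (adjusted p = 0.669). The kinase genes MAPK3, MAP2K1 and MAP2K2 differed by 0.14, −0.07 and 0.07, with adjusted p from 0.451 to 0.655. Of 20 immediate early genes 3 were lower (GADD45B, JUNB and IER2), and of 14 receptor tyrosine kinases and adaptors 3 were lower (21.4%, against 7.47% of all genes), namely FGFR3, IRS1 and IGF1R, the last by 0.53 ± 0.16.

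Chaperones and unfolded protein response genes of the endoplasmic reticulum were split, with 2 of 29 higher, HSPA5 (0.45 ± 0.07) and ATF6 (0.72 ± 0.15), and 4 lower, MANF (−0.36 ± 0.09) and DNAJB11 (−0.28 ± 0.07) among them. Of 16 cytosolic heat shock genes 1 was higher, HSPA1A (0.52 ± 0.08), and 2 lower. Among 17 p53 targets 5 were higher and 2 lower, against 6.98% and 7.47% of all genes. The higher ones included GDF15 and SESN2, which are also listed as ATF4 targets, and the lower ones included CDKN1A, the cell cycle inhibitor p21 (−0.32 ± 0.09). Of 31 interferon genes 5 were higher, led by ISG15 (0.46 ± 0.06), and of 10 inflammatory genes SOD2 was higher and CSF1 lower. Of 18 epithelial genes 6 were lower (33.3%), including the junction protein JUP (−0.59 ± 0.09) and the secretory disulfide isomerase AGR2 (−0.62 ± 0.07), with 1 higher, CLDN1. Of 14 mesenchymal genes 3 were higher, including the integrin ITGA5 (0.31 ± 0.06), in 18 of 18 pairs. Among 13 mitochondrial messenger RNAs ND6 and ND4 were higher, by 0.18 ± 0.05 and 0.13 ± 0.05. Of 16 genes of mitochondrial stress and import 3 were higher and 2 lower, and of 31 proteasome subunits PSMA2 was lower. For the BCL2 family edgeR called 0 of 10 genes, with 1 at an unadjusted p under 0.05 and 0 called by DESeq2.

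**Figure D3:**
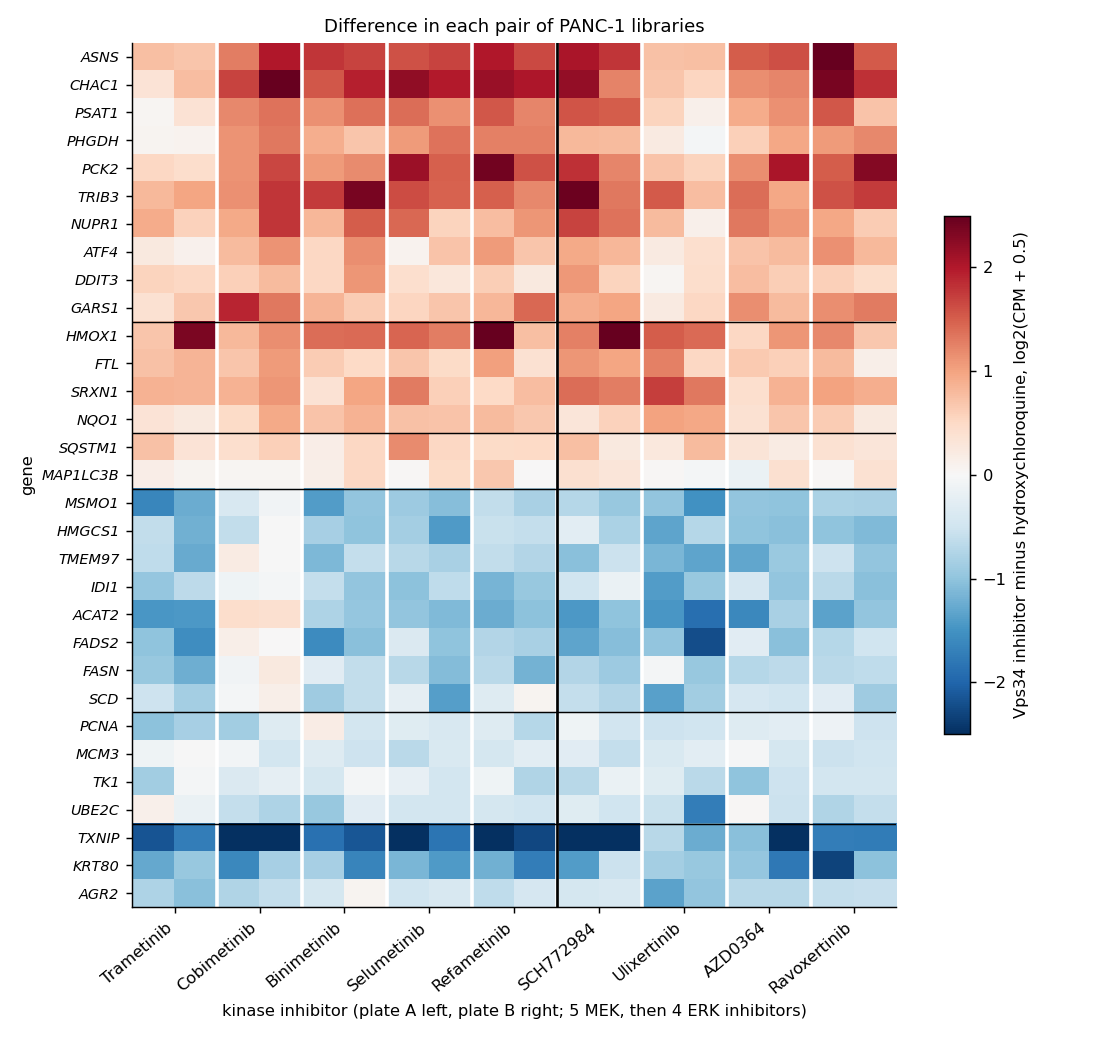
Difference in log2(CPM + 0.5) between the Vps34 inhibitor and hydroxychloroquine in each of 18 pairs of PANC-1 libraries, by gene (rows) and kinase inhibitor with plate A and plate B side by side (columns); red is higher and blue lower with the Vps34 inhibitor, and colours are capped at 2.5. Most rows keep their colour across columns, and the sterol and fatty acid rows are palest with Cobimetinib.

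The comparison of MEK with ERK inhibitors asked whether the level of the block mattered for the difference. In the test of the difference itself, edgeR called 0 of 10694 genes (0%), with 331 at an unadjusted p under 0.05, and DESeq2 called 0, with 270. ASNS differed between the autophagy inhibitors by 1.56 ± 0.19 under ERK inhibitors and 1.52 ± 0.13 under MEK inhibitors, and the 95% interval of the ERK minus MEK difference was −0.46 to 0.55. For MSMO1 the values were −0.97 ± 0.09 and −0.91 ± 0.13 in the same order, with an interval of −0.40 to 0.29. TXNIP was at −1.94 ± 0.27 under ERK inhibitors and −2.68 ± 0.27 under MEK inhibitors, with an interval of −0.15 to 1.63. The intervals still hold differences of some size, so the drug classes are not shown to act alike.

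Whether the difference varied among the 9 drugs was tested in another edgeR fit, of drug and autophagy inhibitor combinations with plate. In it 2 of 10694 genes passed (0.0187%), ACAT2 and PHGDH, each with adjusted p = 0.0257. At an unadjusted p under 0.05 there were 435 genes (4.07%). DESeq2 called 17 genes, among them ACAT2, PHGDH, ASNS, PSAT1 and CHAC1, and had 520 at an unadjusted p under 0.05. An edgeR fit without the replicate block called 0, as given with the processing alternatives. Contrasts for single drugs from that edgeR fit set 2 libraries against 2, with the spread shared over all 36 libraries. Among MEK inhibitors, 14 genes were called with Trametinib (0.131%), 24 with Cobimetinib (0.224%), 13 with Binimetinib (0.122%), 19 with Selumetinib (0.178%) and 14 with Refametinib (0.131%). Among ERK inhibitors, 61 were called with SCH772984 (0.57%), 103 with Ulixertinib (0.963%), 15 with AZD0364 (0.14%) and 18 with Ravoxertinib (0.168%). Of the 103 with Ulixertinib 26 were higher and 77 lower. TRIB3 and MKNK2, a kinase that phosphorylates the translation factor eIF4E, were called with 8 of 9 drugs, and ASNS, CHAC1, PHGDH, PSAT1 and ACAT2 with 7. MKNK2 had 308 to 731 CPM (median 396) with the Vps34 inhibitor and 179 to 419 CPM (median 234) with hydroxychloroquine, and was higher in all 18 pairs by 0.78 ± 0.05. These counts of calls per drug were not compared with each other by a test.

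PHGDH varied with Trametinib and Ulixertinib. With Trametinib it had 298 and 311 CPM with the Vps34 inhibitor, against 286 and 292 CPM with hydroxychloroquine (plates A and B). With Ulixertinib it had 232 and 189 CPM with the Vps34 inhibitor, against 198 and 195 CPM with hydroxychloroquine. With the other 7 drugs it had 161 to 228 CPM with the Vps34 inhibitor and 76.3 to 133 CPM with hydroxychloroquine, so the hydroxychloroquine libraries of both drugs lay above those of the other 7. The same drugs stood apart for other ATF4 targets: ASNS with Trametinib had 199 and 296 CPM with the Vps34 inhibitor, against 118 and 184 CPM with hydroxychloroquine. With Ulixertinib it had 198 and 265 CPM with the Vps34 inhibitor, against 119 and 157 CPM with hydroxychloroquine. ASNS was at 105 to 240 CPM with the Vps34 inhibitor and at 27.4 to 69.5 CPM with hydroxychloroquine under the other 7 drugs. Its differences by drug were 0.72 with Trametinib and 0.74 with Ulixertinib, and 1.57 to 2.03 elsewhere.

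Over the 31 ATF4 synthesis and redox targets tested, the mean level in log2(CPM + 0.5) with Trametinib was 5.82 and 5.88 with the Vps34 inhibitor, against 5.46 and 5.54 with hydroxychloroquine. With Ulixertinib it was 5.85 and 5.65 with the Vps34 inhibitor, against 5.48 and 5.47 with hydroxychloroquine. With the other 7 drugs it was 5.03 to 5.53 with the Vps34 inhibitor and 4.40 to 4.71 with hydroxychloroquine. The median difference of the list was 0.28 with Ulixertinib and 0.32 with Trametinib, and highest with SCH772984 at 0.83. The 2 drugs belong to different classes, since Trametinib inhibits MEK and Ulixertinib ERK.

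By its values, and not by a test of 1 drug against the others, ACAT2 stood apart with Cobimetinib. With it, ACAT2 had 167 and 167 CPM with the Vps34 inhibitor, against 124 and 126 CPM with hydroxychloroquine, a difference of 0.42 (adjusted p = 0.55). With the other 8 drugs it had 35.3 to 135 CPM with the Vps34 inhibitor and 131 to 353 CPM with hydroxychloroquine, with differences from −0.87 with Binimetinib to −1.66 with Ulixertinib. Other sterol genes were also close together with Cobimetinib: MSMO1 had 325 and 390 CPM with the Vps34 inhibitor, against 427 and 414 CPM with hydroxychloroquine. The mean level of the 27 sterol genes with Cobimetinib was 5.76 and 5.92 in log2(CPM + 0.5) with the Vps34 inhibitor, against 5.72 and 5.68 with hydroxychloroquine. With the other 8 drugs it was 4.97 to 5.64 with the Vps34 inhibitor and 5.74 to 6.24 with hydroxychloroquine. The median difference of the list was 0.09 with Cobimetinib, with 16 of 27 genes above 0, and −0.52 to −0.78 with the others. With Cobimetinib edgeR called 0 sterol genes, and 3 had an unadjusted p under 0.05, all with higher values with the Vps34 inhibitor. ATF4 targets were not set apart with Cobimetinib, where ASNS differed by 1.61. The list summaries by drug were looked at after the data were seen and were not tested as lists.

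**Figure D4:**
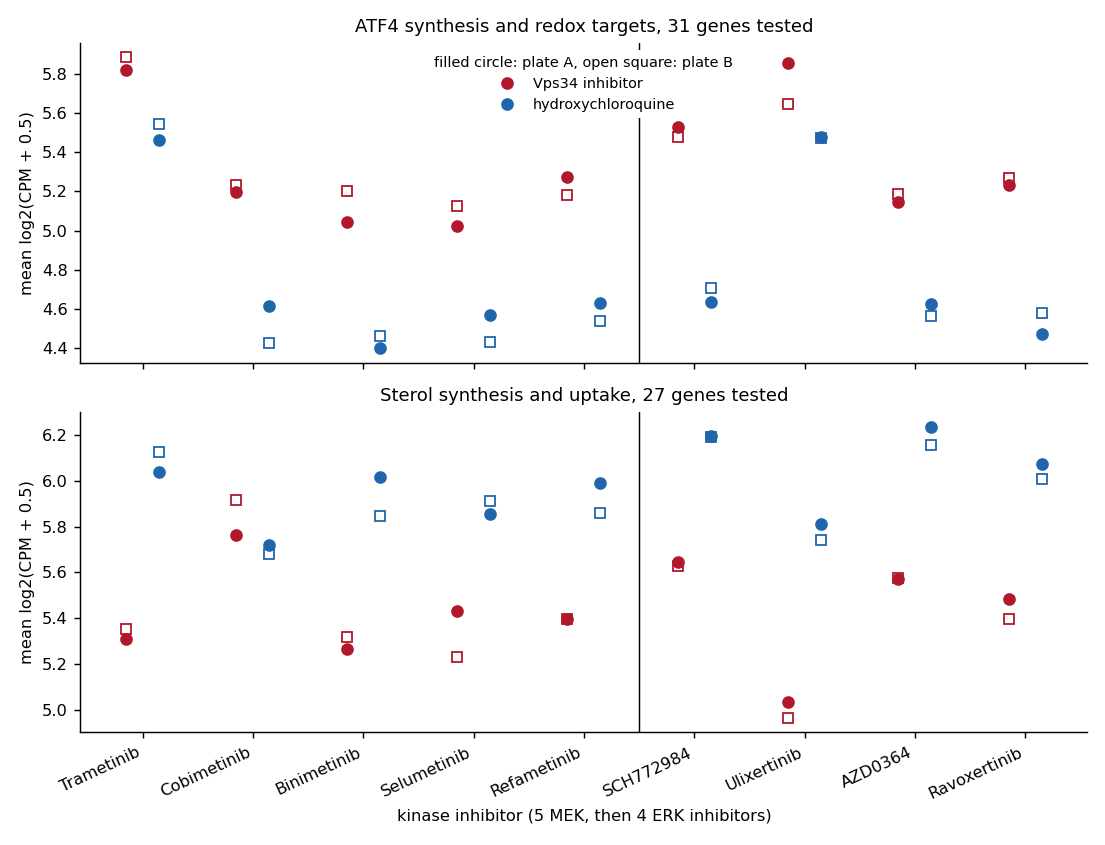
Mean log2(CPM + 0.5) of 31 ATF4 targets (top) and 27 sterol genes (bottom) in each PANC-1 library by kinase inhibitor, red for the Vps34 inhibitor and blue for hydroxychloroquine, with filled circles for plate A and open squares for plate B. ATF4 targets were highest with Trametinib and Ulixertinib under both autophagy inhibitors, and sterol genes with the Vps34 inhibitor were highest with Cobimetinib.

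For genes of the cell cycle the Ulixertinib pairs gave the lowest medians. The 43 genes of G1/S and DNA replication had a median difference of −0.57 with Ulixertinib, where 5 genes were called lower, and −0.14 to −0.35 with the other 8 drugs. The 50 genes of G2/M and mitosis had a median of −0.87 with Ulixertinib, where 17 genes were called lower and 34 had an unadjusted p under 0.05. With the other 8 drugs this median was −0.01 to −0.23, and edgeR called 0 of the list with each, with 2 to 8 genes at an unadjusted p under 0.05. In the test of a difference among the drugs the genes that edgeR passed, ACAT2 and PHGDH, are on neither list, while DESeq2 called TYMS of the G1/S list and the mitotic genes CDK1, CCNB1 and NEK2, as well as SPC25, a kinetochore subunit outside both lists.

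The same contrast without a kinase inhibitor asked whether the differences were tied to the block. In 12 other PANC-1 libraries, in which the autophagy inhibitors were given without a kinase inhibitor, 269 of 12460 genes were called (2.16%), with 143 of them higher and 126 lower. There, 14 of 35 ATF4 synthesis and redox targets were higher and none lower at the threshold (median 0.58). Of the sterol genes, 15 were lower and none higher (median −0.63). Fewer libraries were compared here than under the block, and more genes were tested. The counts and shares of calls therefore cannot be set against those under the block, and fewer calls do not show a smaller difference. Without a kinase inhibitor, ASNS differed by 1.73 ± 0.13, MSMO1 by −0.91 ± 0.10 and TXNIP by −2.74 ± 0.37. The difference under the block minus the difference alone was tested directly: edgeR called 0 of 10762 genes (0%), with 716 at an unadjusted p under 0.05, and DESeq2 called 5, with 678. Those 5 were ZNF26 (−5.74), STEAP3 (−1.07), AARSD1 (−4.11), ZNHIT1 (−3.11) and ZNFX1 (−2.63), all with a lower difference under the block than alone. None of them was called by edgeR. The 95% interval of this difference was −0.50 to 0.12 for ASNS, −0.24 to 0.21 for MSMO1 and −0.58 to 1.22 for TXNIP. For TRIB3, at 0.93 ± 0.18 alone, the unadjusted interval was 0.16 to 1.01 and lay above 0, but the gene did not pass after adjustment.

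AsPC-1, another pancreatic ductal adenocarcinoma line, received the same combinations in 36 libraries on plates of its own, so line and plate cannot be told apart in levels, and only the within-line differences were compared. There the Vps34 inhibitor minus hydroxychloroquine difference was called for 2510 of 9981 genes (25.1%), 1279 higher (12.8%) and 1231 lower (12.3%). Of 9151 genes tested in both lines, 527 were called in both. Of these 442 had the same direction, which is 32.5% of the PANC-1 calls and 19.4% of the AsPC-1 calls, and 85 had opposite directions. The test of the line difference itself passed for 1272 of 11702 genes (10.9%), 614 higher (5.25%) and 658 lower (5.62%) in PANC-1 relative to AsPC-1.

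The ATF4 targets had the widest gap between the lines' medians among the 8 lists plotted. Over 25 synthesis and redox targets tested in both lines the median was 0.46 in PANC-1 and −0.24 in AsPC-1, and the line difference passed for 21 of 33 genes tested, all higher in PANC-1. TRIB3 in AsPC-1 had 1.88 to 11.6 CPM (median 6.48) with the Vps34 inhibitor and 5.71 to 37.1 CPM (median 13.2) with hydroxychloroquine, a difference of −1.05 ± 0.19 where PANC-1 had 1.48, and the line difference was 2.54 ± 0.21. DDIT3 went the same way, with −1.15 ± 0.10 in AsPC-1 and a line difference of 1.73 ± 0.11, as did SESN2, with −1.12 ± 0.21 and 2.22 ± 0.25. ASNS was an exception, since it also rose in AsPC-1, by 1.01 ± 0.11, and the line difference was 0.53 ± 0.17 (adjusted p = 0.0289). ATF4 itself differed by 0.01 ± 0.08 in AsPC-1, and the line difference was 0.68 ± 0.12.

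Sterol genes moved the same way in both lines, and less in AsPC-1. Over 26 genes tested in both, the median was −0.53 in PANC-1 and −0.27 in AsPC-1. Of 27 genes tested in AsPC-1 itself, 11 were lower and 1 higher. The line difference passed for 9 of 28 genes, 8 of them lower in PANC-1, including MSMO1 (−0.49 ± 0.11), TMEM97 (−0.71 ± 0.13) and ACAT2 (−0.92 ± 0.16). FASN fell by 0.70 ± 0.13 in AsPC-1 and TXNIP by 1.79 ± 0.15, and neither differed between lines at the threshold. NRF2 targets were higher in both lines, with medians of 0.28 in PANC-1 and 0.38 in AsPC-1 over 26 genes, and 22 of 31 higher and 1 lower in AsPC-1. The line difference passed for 11 of 32, 5 higher and 6 lower in PANC-1.

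Cell cycle genes split by phase. Over 38 G1/S genes the median was −0.31 in PANC-1 and 0.05 in AsPC-1, and 8 of 43 tested for the line difference were lower in PANC-1. PCNA rose in AsPC-1 by 0.30 ± 0.08, and the line difference was −0.73 ± 0.11. Over 49 G2/M genes the median was −0.21 in PANC-1 and −0.42 in AsPC-1, with 33 genes lower in AsPC-1 and 4 for which the line difference was positive. ERK output also differed for some genes: the median over 10 genes was 0.07 in PANC-1 and −0.25 in AsPC-1, and FOSL1 was lower in AsPC-1 by −1.03 ± 0.14, with a line difference of 0.88 ± 0.16. In AsPC-1 12 of 13 mitochondrial messenger RNAs were higher (median 0.42), and for 11 the line difference was negative.

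**Figure D5:**
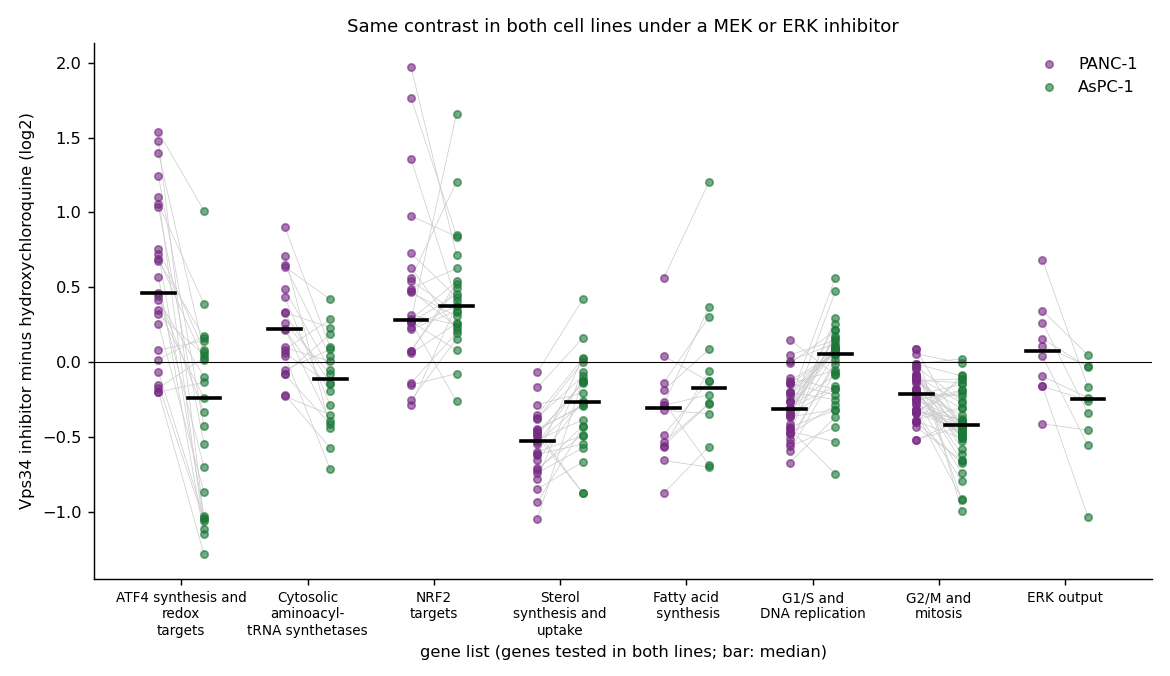
Log2 difference between the Vps34 inhibitor and hydroxychloroquine under a MEK or ERK inhibitor for genes tested in both lines, PANC-1 (purple, left) and AsPC-1 (green, right), by gene list; lines join a gene and bars are medians. The medians of ATF4 targets were 0.46 in PANC-1 and −0.24 in AsPC-1, whereas those of NRF2 targets were 0.28 and 0.38.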

How the data were processed

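The starting values were whole-number gene counts as deposited by the authors, not normalised, for 25435 symbols; in the 36 libraries 6016 of them had no count. The submitters' processing notes name kallisto 0.44.0 and GRCh38; for the annotation and the step to genes the sources used here give nothing. Gene positions come from GENCODE 29 and promoters from RefSeq (GRCh38.p14). Libraries held 1668710 to 5620760 counts, none was left out, and no 2 libraries were duplicates (lowest correlation between members 0.915).

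Counts were analysed with edgeR 4.0.16 in R 4.3.3 (filterByExpr by autophagy inhibitor, TMM factors, robust quasi-likelihood fit) with 1 term for each of the 18 pairs of drug and plate, which left 17 residual degrees of freedom. Pairing follows the plate in the labels, and no term linked the pairs that share a drug. Deviations from group means of libraries sharing drug and plate correlated with a median of 0.0929, over 0.1 in 8 of 18 pairs, against −0.0466 for libraries sharing neither. Differences among drugs, single drugs and against the alone libraries came from fits of drug and autophagy inhibitor combinations with plate. Tests are two-sided with Benjamini-Hochberg adjustment over all genes, and 0.05 is the threshold. DESeq2 1.42.0, other size factors and filters, no pairing, single plates, single drug classes, each drug left out and libraries thinned to equal totals (added after the data were seen) were alternatives. CPM use library totals with TMM factors, and levels on the log scale a pseudocount of 0.5. Shares per library were compared by permutation with 100000 draws.

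Genes named are up to 4 called members per list, the 8 largest rises and falls at a mean log2 CPM of at least 5 and 1 sign in at least 16 pairs, fixed drug targets and, for other comparisons, up to 3 called genes per direction; further genes were chosen after their values were seen. Some genes that this rule names are not reported in the text. The members and the 38 lists were chosen with earlier results of these data known. On simulated counts for 10610 genes in this layout, the main comparison recovered 98 of 101 changes of 1 log2 unit and 53 of 97 of 0.5, with 5 false among 156 calls. Each simulated pair had an effect of its own, and a changed gene had the same difference in all pairs. Likeness between pairs that share a drug and variation among drugs were not simulated, so the false calls they could give are not measured.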

Additional observations from a re-analysis of the deposited data

Results flagged for a closer look

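The following genes are given here because a test of the difference itself passed between the cell lines or among the kinase inhibitors. Values are the PANC-1 minus AsPC-1 difference of the Vps34 inhibitor over hydroxychloroquine contrast in log2, each past an adjusted p of 0.05 in edgeR. Genes of the ATF4 response were higher in PANC-1 relative to AsPC-1: TRIB3 by 2.54, SESN2 by 2.22, DDIT3 by 1.73, GARS1 by 0.82, ATF4 by 0.68 and PSAT1 by 0.67. MKNK2 was higher by 0.95, FOSL1 by 0.88, MAP1LC3B by 0.79, NQO1 by 0.42 and SQSTM1 by 0.40. For MAP1LC3B the contrast was 0.20 ± 0.06 in PANC-1 and −0.58 ± 0.10 in AsPC-1.

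On the other side stood AGR2 with −1.80, whose contrast was −0.62 ± 0.07 in PANC-1 and 1.19 ± 0.09 in AsPC-1. LXN, an inhibitor of carboxypeptidases, followed with −1.44 and PRXL2A, a redox-active protein of the peroxiredoxin fold, with −0.82, and both differed by 1.27 ± 0.11 and 0.76 ± 0.07 in AsPC-1 while missing the threshold in PANC-1. ACAT2 had −0.92, PCNA −0.73, TMEM97 −0.71 and MSMO1 −0.49. RNR1, the small ribosomal RNA of mitochondria, had 1.38. It had a median of 5026 CPM with the Vps34 inhibitor and 6868 CPM with hydroxychloroquine in PANC-1, and of 6277 CPM with the Vps34 inhibitor and 21127 CPM with hydroxychloroquine in AsPC-1.

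ACAT2 and PHGDH also varied among the 9 kinase inhibitors within PANC-1 (adjusted p = 0.0257 each).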

How the results depend on the processing

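Of 1545 genes called, 1454 kept call and direction with DESeq2, 1531 with other size factors, 1346 of 1522 tested with libraries thinned to equal totals, 1380 without the replicate block and 1149 to 1216 with 1 kinase inhibitor left out. Fewer libraries gave fewer calls: higher genes numbered 746 in all, 257 with MEK inhibitors, 138 with ERK inhibitors and 131 to 671 with a plate or a drug left out. Lower genes numbered 799, with 232, 104 and 88 to 670 in the same order. Direction was kept by all called genes that could be tested on a single plate, and by 1540 of 1541 with ERK inhibitors. The same libraries had entered the calls, so kept directions are not a separate test. Of the called genes tested again, 214 of 1536 kept their call on plate A alone and 557 of 1531 on plate B alone. SPRY4, at 0.16, turned to −0.11 with MEK inhibitors, −0.04 without Ravoxertinib and −0.041 to 0.37 with 1 plate left out, and MAP2K2 ran from −0.062 to 0.19. Neither was called.

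The difference among drugs was called for 2 genes, 17 with DESeq2, 1 without the filter and 0 without the replicate block. Against the alone libraries DESeq2 called 5 genes and edgeR 0 (716 at an unadjusted p under 0.05). Calls for the line difference fell to 189 to 202 higher and 172 to 283 lower on single plates. Without the replicate block Trametinib had 5 calls, Binimetinib 7, AZD0364 7 and SCH772984 40, and SCH772984 had 38 without the filter. Among the library measures, the difference of the mitochondrial share ran from −0.0209 to 0.68 and that of the 10 most abundant genes from −0.184 to 0.249 percentage points with 1 plate left out, and differences of −845383 counts and −369 genes detected passed without the replicate block (adjusted p = 0.0318 each). The cause of these shifts was not tested. Depth limits what is seen at low levels: DUSP6, TFEB and GABARAPL1 could not be tested.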
